A study of Homo sapiens with 6 samples.

Results

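NRF2 peaks of the human microglial cell line HMC3 crowd into 77 megabases, most of them without a protein-coding gene, and these dense megabases are described here. Overlapping peaks of the 4 lists, over the autosomes and X, gave 19331 joined regions, each placed in a megabase by the summit of its most significant peak. A megabase was taken as dense when it held more than 20 joined regions. Dense megabases held 11945 regions (61.8%), and the 2527 other megabases with a region held 7386. Without CDDO-Im 2, the longest list, dense megabases held 7823. The members were thus chosen by measured peak positions in all 4 libraries, so their number, crowding and library membership are descriptions with no test.

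HMC3 is an established, immortalised line. Cells received vehicle (2 libraries) or CDDO-Im (2 libraries), the imidazolide of a synthetic oleanane triterpenoid that activates NRF2, at 30 nM for 4 h. Chromatin of both groups was crosslinked with formaldehyde and precipitated with an antibody to NRF2. The labels carry the same treatment text for every sample, so the titles gave the groups, and they name neither the vehicle nor separate cultures: the spread between replicates may be technical. Input chromatin of 2 further samples, without a peak list of its own, was not analysed here. Peak lists of a transcription factor do not measure expression, so the cell line was not checked against markers.

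NRF2 is a transcription factor that pairs with small MAF proteins on antioxidant response elements near detoxification, glutathione and iron genes. In unstressed cells KEAP1 hands it to the proteasome, and electrophiles such as CDDO-Im stop this. A part of every human chromosome carries almost no genes: the centromere and the heterochromatin beside it, made of satellite repeats in long tandem arrays, chiefly alpha satellite at the centromere itself. The short arms of the acrocentric chromosomes (13, 14, 15, 21 and 22) also carry the ribosomal RNA genes in tandem copies. Alpha satellite is near-identical between chromosomes 13 and 21 and between 14 and 22. Reads from such repeats can map to many places, and copies missing from a genome build pile up on those that it holds. No repeat, centromere or mappability annotation was used here, and no genome sequence.

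The stand-ins for depth ordered the libraries differently. The lowest background recovered from the peak values was 0.316 and 0.315 tags (overlapping fragments) in vehicle 1 and 2, and 0.332 and 0.367 in CDDO-Im 1 and 2. The shortest listed peak, which follows the fragment length set in peak calling, was 201 and 169 bp under vehicle and 206 and 177 bp with CDDO-Im. Replicate 1 of each group thus had the longer value. The lowest background also grows with fragment length. Taken over the shortest peak (and scaled to the mean shortest peak) it was 0.296 and 0.3504 under vehicle and 0.303 and 0.391 with CDDO-Im, so that replicate 2 was the deeper in each group and CDDO-Im 2 stood 1.32-fold above vehicle 1.

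The dense megabases formed 1 main block on each of the 23 chromosomes. Neighbouring dense megabases joined into 26 blocks: 23 main blocks with 11786 regions and a second, isolated block of 1 megabase on chromosomes 1, 16 and 21 with 159 regions together. On 20 of the 23 chromosomes the main block lay within the longest stretch free of protein-coding genes, with at least 95% of its regions there. Chromosomes 2, 4 and 21 were the exceptions, and on 2 and 4 at least 95% lay in the longest stretch free of any annotated gene. On chromosomes 13, 14, 15, 21 and 22 the gene table holds entries at very low coordinates that may belong to other scaffolds, so the stretches there are uncertain. For chromosome 1 that protein-coding gap ran from 121463130 to 143902385, a length of 22.4 Mb, and also held the isolated block. Coordinates are on hg38, with genes from RefSeq on GRCh38.p14.

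**Figure D1:**
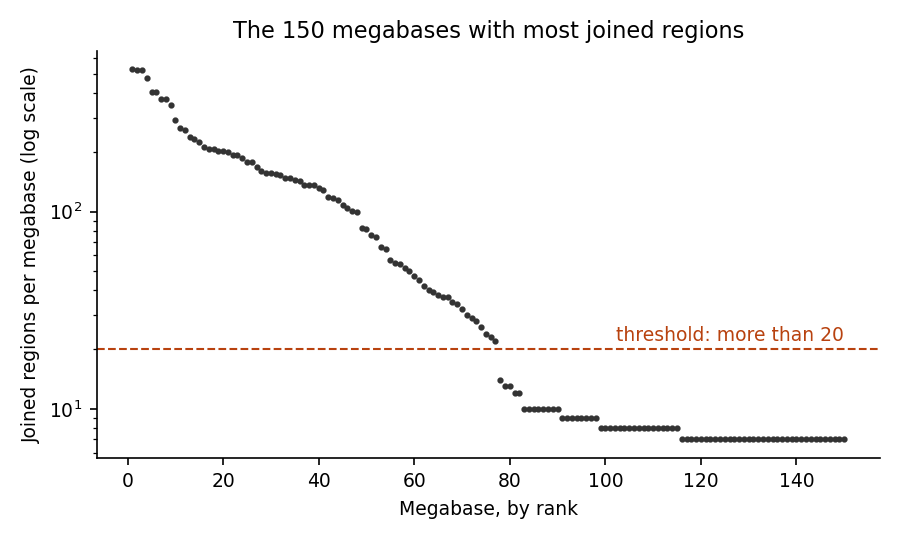
Joined regions per megabase (y, log scale) for the 150 fullest megabases by rank (x), 1 point per megabase, with the threshold as a dashed line. Dense megabases run from 528 down to 22 regions, and the next megabase holds 14.

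The threshold fell in a gap. The least crowded dense megabases were chromosome 2, 94000001 to 95000000, with 22 regions, chromosome X, 62000001 to 63000000, with 23, and chromosome 1, 121000001 to 122000000, with 24. Just outside it lay chromosome X, 58000001 to 59000000, with 14 regions, and megabases of chromosomes 10 and 16 with 13 each. The first of these adjoins the main block of chromosome X. A dense megabase held a median of 136 regions, against 3 in other megabases.

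Regions were unevenly spread over chromosomes, with 4 acrocentric chromosomes in the lead by number. Main blocks differ in length, from 2 to 5 megabases, and per megabase the order changed. Chromosome 21 led with 407 regions per megabase, followed by chromosomes 8 (376.5) and 6 (291), which are not acrocentric. Chromosomes 22, 13 and 14 came after these, with 268, 267 and 262. The main blocks of chromosomes 21 (11000001 to 13000000), 22 (13000001 to 16000000), 13 (16000001 to 19000000) and 14 (16000001 to 19000000) held 814, 804, 800 and 785 regions, 3203 in all or 26.8% of the total. Chromosome 20 (26000001 to 29000000) followed with 754, chromosome 8 (44000001 to 46000000) with 753, chromosome 10 (39000001 to 42000000) with 597 and chromosome 6 (58000001 to 60000000) with 582. Chromosome 3 held 576, chromosome 9 557, chromosome 17 491 and chromosome 12 483. Chromosome 4 held 462, chromosome 7 440, chromosome 2 426 and chromosome 11 383. Chromosomes 1, 19 and 5 held 355, 351 and 341 in their main blocks. The lowest were chromosome 16 with 304, 15 with 301, X with 230 and 18 with 197, and chromosome 15 is acrocentric too.

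The nearest protein-coding genes flanked these blocks at a distance. TPTE and POTED, both of families with testis expression, lay 541697 and 694706 bp from the outermost regions of the chromosome 21 main block. On chromosome 20 these were ZNF337, a zinc finger gene, at 396703 bp and LOC124904970 at 2250528 bp. POTEA and LOC105375816 lay 670864 and 1212282 bp from the chromosome 8 block, ZNF37A and ZNF33B 1087357 and 684472 bp from that of chromosome 10, and PRIM2, a DNA primase subunit, and KHDRBS2 803092 and 1714282 bp from that of chromosome 6. On the long-arm side the nearest genes were TUBA3C at 961618 bp on chromosome 13, and the olfactory receptor genes OR11H12 at 220093 bp on 14 and OR11H1 at 21869 bp on 22. Of the 77 dense megabases, 64 held no protein-coding gene and 47 no annotated gene of any kind. The median dense region lay 1411370 bp from the nearest protein-coding gene, against 6063 bp for regions of other megabases.

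The libraries differed in how many peaks they listed in dense megabases, and the replicates of CDDO-Im differed most. Vehicle 1 and 2 listed 2882 and 6032 peaks there, and CDDO-Im 1 and 2 listed 633 and 7449. CDDO-Im 1 was the lowest and CDDO-Im 2 the highest, so the vehicle libraries lay between the CDDO-Im libraries. These were 70.3% (exact 95% binomial interval 68.9% to 71.7%) and 82.5% (81.6% to 83.4%) of the vehicle lists, and 16.3% (15.2% to 17.5%) and 60.8% (59.97% to 61.7%) of the CDDO-Im lists. Intervals cover counting error only.

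The same order held along the genome. CDDO-Im 1 listed fewest peaks in 25 of the 26 blocks, and CDDO-Im 2 most in 22. In 22 of the 23 main blocks the order was CDDO-Im 1, vehicle 1, vehicle 2, CDDO-Im 2. The exception was chromosome 7, where vehicle 2 had 209 peaks and CDDO-Im 2 had 202. The groups did not overlap in 1 block, the isolated block of chromosome 21. Main blocks held 33 to 219 peaks of vehicle 1, 119 to 432 of vehicle 2, 6 to 59 of CDDO-Im 1 and 170 to 574 of CDDO-Im 2, with medians of 124, 237, 20 and 270. Replicate 2 exceeded replicate 1 in 26 of 26 blocks under vehicle and in 25 of 26 with CDDO-Im. Replicate 2 was also the library with the shorter shortest peak in each group, and the deeper one by background over that length. Vehicle 1 and CDDO-Im 1 were close in both measures (201 and 206 bp, 0.296 and 0.303) and listed 2882 and 633 dense peaks. Vehicle 2 and CDDO-Im 2 had 169 and 177 bp, 0.3504 and 0.391, and 6032 and 7449 dense peaks. The part of fragment length and depth in these counts was not tested.

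**Figure D2:**
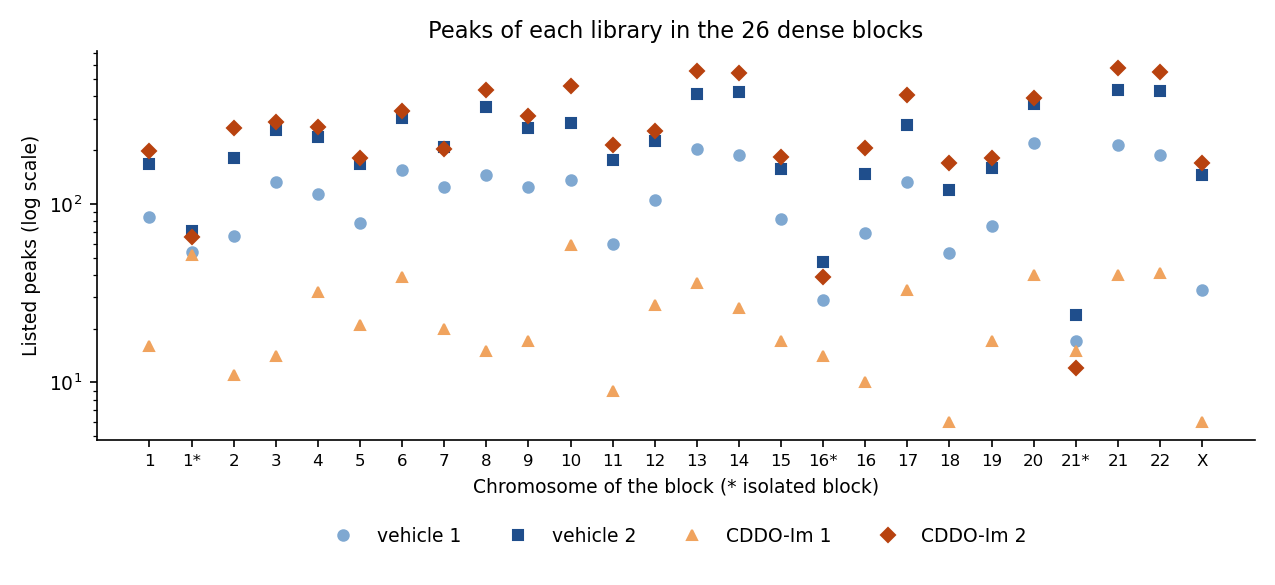
Listed peaks (y, log scale) of each library in each of the 26 blocks (x, by chromosome, an asterisk marking isolated blocks), 1 symbol per library. CDDO-Im 1 lies lowest in 25 blocks and CDDO-Im 2 highest in 22, and the 4 libraries lie close together in the isolated block of chromosome 1, between 52 and 71 peaks.

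The libraries ranked the main blocks alike. Across the 23 main blocks Spearman's rho of peak numbers was 0.96 between vehicle 2 and CDDO-Im 2, 0.94 between the vehicle libraries, 0.88 between vehicle 1 and CDDO-Im 2, and 0.81 between vehicle 1 and CDDO-Im 1. It was 0.76 between vehicle 2 and CDDO-Im 1 and 0.70 between the CDDO-Im libraries. The blocks are the same stretches of genome in every library, so these values are descriptions.

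Most dense regions were listed by a lone library, as elsewhere, but the shared ones were shared by other libraries. In dense megabases 69.9% of regions were listed by 1 library (8352 of 11945, exact 95% binomial interval 69.1% to 70.7%), against 70.1% in other megabases. Vehicle 2 and CDDO-Im 2 alone listed 1799 dense regions (15.1%, interval 14.4% to 15.7%), against 0.569% of other regions. Both CDDO-Im and neither vehicle library listed 47 (0.393%), against 19.3% elsewhere. Both vehicle and neither CDDO-Im library listed 235 (1.97%), against 0.0542%. A further 742 (6.21%) were listed by all but CDDO-Im 1, and 203 (1.699%) by all 4 libraries, against 0.0812% and 3.11% in other megabases.

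**Figure D3:**
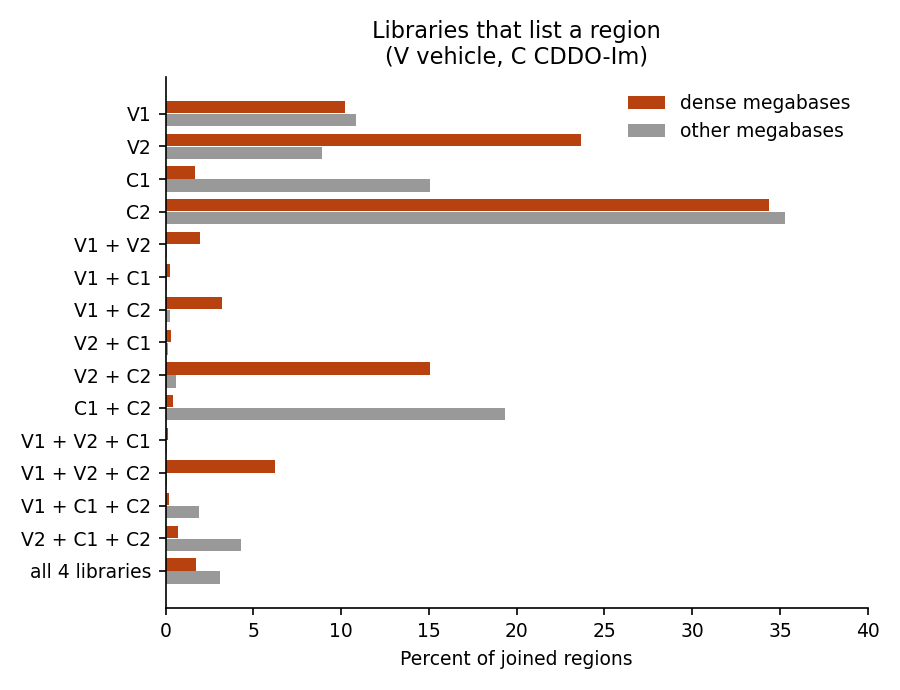
Percent of joined regions (x) held by each combination of libraries (y), in dense megabases (red) and other megabases (grey). The pair of vehicle 2 and CDDO-Im 2 holds 15.1% of dense regions and the CDDO-Im pair 0.393%, against 0.569% and 19.3% elsewhere.

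Shared dense peaks were less well aligned between libraries than shared peaks elsewhere. Vehicle 2 and CDDO-Im 2 shared 2825 dense regions, 47.6% of those of vehicle 2 and 38.3% of those of CDDO-Im 2. The vehicle libraries shared 1197, which is 42.0% of vehicle 1 and 20.2% of vehicle 2. The CDDO-Im libraries shared 352, which is 55.8% of CDDO-Im 1 but 4.77% of CDDO-Im 2. The median distance between the summits of 2 libraries in a shared region was 31 to 45 bp in dense megabases and 18 to 21 bp in others, and it was larger in dense megabases for all 6 pairs of libraries. The pairs share libraries and are not independent, so the difference carries no p-value.

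Peaks in dense megabases had a lower median fold enrichment than peaks elsewhere in the same list. The authors' fold enrichment (tags over the local background that the peak caller estimated, each plus 1) had a median of 5.13 in vehicle 1, 5.50 in vehicle 2, 4.77 in CDDO-Im 1 and 5.55 in CDDO-Im 2. In other megabases it was 5.32, 5.77, 7.17 and 7.54. The ratio of medians was below 1 in 4 of 4 libraries, with a mean log2 ratio of -0.29 ± 0.27 (SD, n = 4, exact two-sided sign-flip permutation p = 0.125, the smallest that 4 libraries allow). It was near 0 in the vehicle libraries (-0.05 and -0.07) and lower in the CDDO-Im libraries (-0.59 and -0.44). By fold enrichment, 26 of the first 100 peaks of vehicle 1 and 45 of vehicle 2 lay in dense megabases, against 0 of CDDO-Im 1 and 0 of CDDO-Im 2. Among the first 1000 these were 628, 706, 4 and 49. Of the whole lists, 70.3%, 82.5%, 16.3% and 60.8% of peaks lay in dense megabases. The dense share was thus lower among the first peaks in every library.

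Local background was higher in dense megabases in 4 of 4 libraries. Its median at a summit was 0.561, 0.612, 0.767 and 0.710 tags in vehicle 1, vehicle 2, CDDO-Im 1 and CDDO-Im 2, against 0.374, 0.385, 0.383 and 0.449 in other megabases. The mean log2 ratio was 0.73 ± 0.18 (SD, n = 4, exact two-sided sign-flip permutation p = 0.125), or 1.66-fold. Dense megabases were chosen by crowded peaks, and this background is estimated locally, so the comparison may not be independent of the choice. The same holds for fold enrichment, which is taken over this background. Neither was tested. Background of at least 10 times the lowest of the library was found at 8.15%, 5.16%, 22.6% and 3.93% of dense peaks, in the same order of libraries, and at 3.37%, 3.45%, 1.23% and 0.647% of other peaks. The short list of CDDO-Im 1 thus had the highest share of dense peaks on high background. Median tags at a dense summit were 8, 8, 9 and 9, against 6, 7, 10 and 11 elsewhere.

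Peak width did not differ in the same direction across libraries. Dense peaks had a median of 243 and 220 bp in the vehicle libraries against 201 and 189 bp elsewhere, and of 247 and 239 bp in the CDDO-Im libraries against 262 and 256 bp. The log2 ratios were 0.27 and 0.22 in the vehicle libraries and -0.09 and -0.10 in the CDDO-Im libraries, so their sign followed the group. Over all libraries the mean log2 ratio was 0.08 ± 0.20 (SD, n = 4, exact two-sided sign-flip permutation p = 0.5). The difference between groups in this ratio was not tested. Joined dense regions had a median width of 244 bp (quartiles 196 and 329) and covered 4.46% of the dense megabases. Neighbouring summits in a block lay a median of 2273 bp apart.

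The isolated blocks of chromosomes 1 and 16 held small clusters of deep, wide peaks. On chromosome 1 (143000001 to 144000000), 49 of 55 regions were listed by all 4 libraries, in a stretch of 82987 bp from 143184613 to 143267599 that held 53 of the 55. The 2 protein-coding genes that this megabase touches, FAM72C and the histone gene H3-7, lay beyond it, H3-7 at 68568 bp from the last region. Median tags in this block were 127.5 and 122 in the vehicle libraries and 119 and 118 in the CDDO-Im libraries, on a median local background of 37.3, 37.8, 41.6 and 48.8 tags. Median fold enrichment was thus low, at 3.27, 3.05, 2.97 and 2.61. Regions there had a median width of 543 bp.

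On chromosome 16 (34000001 to 35000000), 10 of 47 regions were listed by all 4 libraries, within 23202 bp from 34572521 to 34595722. CDDO-Im 1 listed 14 peaks in this block with a median of 127.5 tags on a background of 47.3. Vehicle 1, vehicle 2 and CDDO-Im 2 listed 29, 47 and 39 peaks with medians of 11, 11 and 13 tags on 0.748, 0.462 and 0.508. CDDO-Im 1 thus listed fewer peaks in this block, and their median was higher. The same regions were not deeper in CDDO-Im 1 than in every other library. In the 10 shared regions its median was 137 tags, against 135.5 in vehicle 1, 141.5 in vehicle 2 and 154.5 in CDDO-Im 2.

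The isolated block of chromosome 21 (8000001 to 9000000) was that of the ribosomal RNA genes. It held 57 regions, 47 of them listed by 1 library, 9 by 2, 1 by 3 and 0 by all 4. Vehicle 1 and 2 listed 17 and 24 peaks and CDDO-Im 1 and 2 listed 15 and 12, with 7 to 37 tags each. Of the 57 regions, 18 lay inside RNA45SN1 (8433222 to 8446572, 9 regions), RNA45SN2 (8205988 to 8219302, 4) or RNA45SN3 (8389035 to 8402343, 5), copies of the gene of the 45S precursor from which 18S, 5.8S and 28S ribosomal RNA are cut. In RNA45SN1, 7 peaks of vehicle 2 had 15 to 32 tags, 2 of vehicle 1 had 19 and 23, and 2 of CDDO-Im 2 had 29 and 32. CDDO-Im 1 listed 0 peaks in all 3 copies. These copies are near-identical, so tags may be split between them and the copies are not independent. Another 8 regions lay inside other genes of this block, among them 4 in CDC27P10, 2 in CDC27P11 and 1 in CDC27P9, pseudogenes of a subunit of the anaphase-promoting complex. Of these 7, CDDO-Im 1 alone listed 5.

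**Figure D4:**
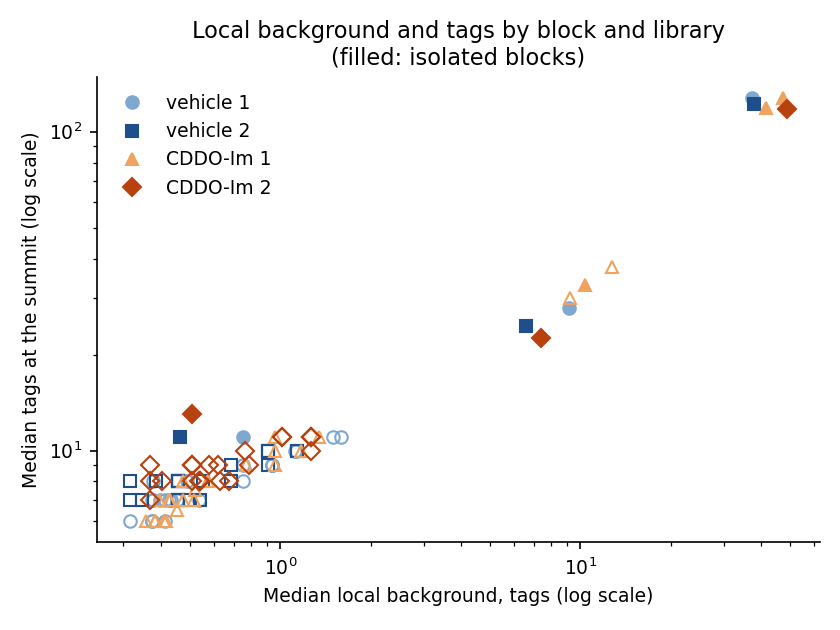
Median tags at the summit (y, log scale) against median local background (x, log scale) of the peaks of each block, 1 symbol per block and library, filled for isolated blocks. The isolated block of chromosome 1 lies at 118 to 127.5 tags on 37.3 to 48.8 background tags in all 4 libraries. Main blocks lie at or below 11 tags, except those of chromosomes 4 and 5 in CDDO-Im 1, at 37.5 and 30 tags.

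Tags in the dense regions listed by all 4 libraries did not separate vehicle from CDDO-Im. These 203 were 1.699% of dense regions, and 49 of them lay in the isolated block of chromosome 1. At 100 of the 203, local background was at least 10 times the lowest in all 4 libraries. Single libraries had such a background at 3.93% to 22.6% of their dense peaks. The 203 thus do not stand for all dense regions. In the 203 dense regions of all 4 libraries, tags over the lowest background of the library had a median of 66.5 and 89.0 in the vehicle libraries and 66.3 and 117 in the CDDO-Im libraries. The groups overlapped. On the log2 scale the group means of these medians differed by 0.20, with vehicle at 6.27 ± 0.30 and CDDO-Im at 6.46 ± 0.58 (SD, n = 2 each, exact two-sided permutation p = 1). The ratio within a region pointed the other way, with a median of 0.896 (quartiles 0.831 and 0.9797, log2 -0.16). The difference of medians also turned sign, to -0.12, without the isolated blocks, a choice made after the data were seen. In the 230 regions of all 4 libraries elsewhere the medians were 34.9 and 41.3 under vehicle against 106 and 148, a median ratio of 3.21.

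The difference between dense and other megabases was tested itself, in the regions of all 4 libraries only. Each library's dense median minus its other median gave a CDDO-Im effect lower by 1.53 on the log2 scale in these dense regions (difference -1.53, exact two-sided permutation p = 0.333, the smallest that 2 against 2 libraries allow). Each CDDO-Im library exceeded each vehicle library in 7 of the 203 dense regions (3.45%), where over all 433 regions of all 4 libraries the share was 47.8%. Each was below each vehicle library in 59 (29.1%), against 15.7% over all 433. Of these 59, 39 lay in isolated blocks, 35 of them in that of chromosome 1, and 20 in main blocks. With the background taken over the shortest listed peak of each library, the higher count was 10 (over all regions 49%) and the lower count fell to 19 (over all regions 4.85%), so the lower calls depended on the measure of depth.

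**Figure D5:**
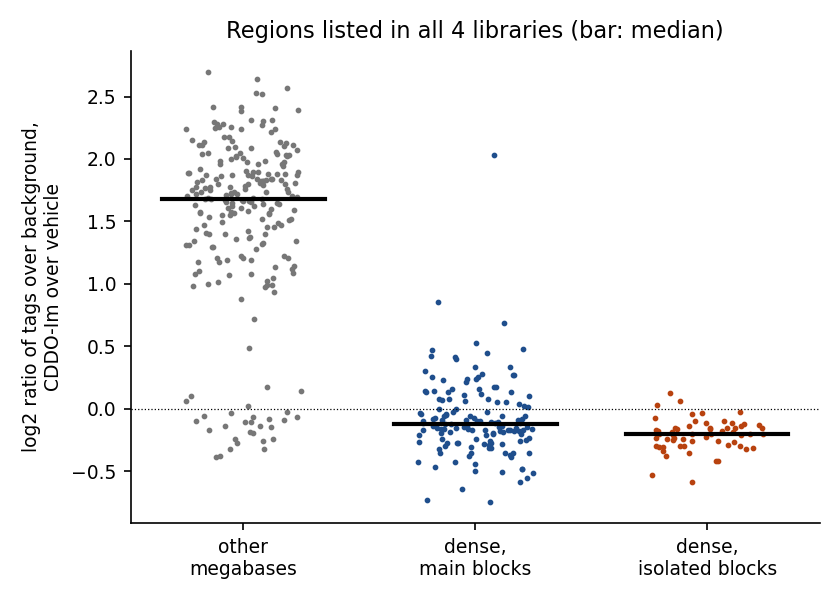
The log2 ratio of tags over background, CDDO-Im over vehicle (y), of each region listed in all 4 libraries, for 230 regions of other megabases, 144 of main blocks and 59 of isolated blocks (x). Black bars are medians, at 1.68, -0.13 and -0.21.

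Main and isolated blocks differed in the share of lower regions. The 144 regions of main blocks had a median ratio of 0.917, with 20 lower (13.9%), a share below the 15.7% over all regions. The 59 of isolated blocks had a median of 0.867, with 39 lower (66.1%). With the background over the shortest peak, 11 (7.64%) and 8 (13.6%) were lower. Median tags in the isolated blocks were 134, 129, 129 and 129 in vehicle 1, vehicle 2, CDDO-Im 1 and CDDO-Im 2. In the main blocks these were 12, 18, 10 and 22.5, with replicate 2 above replicate 1 in both groups. The region with most tags, chosen after its values were seen, lay in the main block of chromosome 3 (93470272 to 93470893), 402479 bp from PROS1, the anticoagulant protein S gene. Vehicle libraries had 402 and 338 tags there and CDDO-Im libraries 410 and 354, on a background of 75.2 to 89.9 tags.

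Regions of all 4 libraries were also described by their local background. Of the 230 other regions, 22 had a background of at least 10 times the lowest in all 4 libraries. By the same rule 0 of these 22 were higher and 9 lower, at a median ratio of 0.908. The remaining 208 had a median of 3.33, with 200 higher and 0 lower. Of the 203 dense regions, 100 had such a background and a median ratio of 0.886, with 3 higher and 52 lower. The other 103, which can still lie above that level in up to 3 libraries, had a median of 0.918, with 4 higher and 7 lower. This split was chosen after the data were seen, and the part of local background in the ratios was not tested.

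The 7 dense regions higher in both CDDO-Im libraries differed mostly by little. The largest ratio, 2.03 on the log2 scale, belonged to a region of chromosome 12 (34033609 to 34034032), with its summit 5513 bp from ALG10, which encodes a glucosyltransferase of N-glycan assembly. Vehicle libraries had 7 and 13 tags there, CDDO-Im libraries 34 and 55, and the groups did not overlap. Its local background was 0.376 to 0.494 tags, near the lowest of each library, and its fold enrichment of 25.1 and 37.5 was the highest of any dense peak in the CDDO-Im lists. A region of chromosome 22 (15034164 to 15034750) held 7 and 5 against 10 and 14 tags, a log2 ratio of 0.85. The others, 3 on chromosome 10 and 1 each on chromosomes 8 and 16, had log2 ratios from 0.13 to 0.48.

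The region near ALG10 was 1 of 5 dense regions inside a protein-coding gene or within 10 kb of it, 0.0419% of dense regions against 52.7% elsewhere. Each lay in the outermost megabase of a main block. A region inside DCUN1D4, a gene of cullin neddylation (chromosome 4, 51853117 to 51853457), had no peak in vehicle 1, 7 tags in vehicle 2, and 15 and 23 in the CDDO-Im libraries. A region inside LOC107985915 (chromosome 2, 94230047 to 94230360) had 14 and 24 tags in the CDDO-Im libraries and was in neither vehicle list. A region inside SRGAP2C, a human-specific copy of a neuronal gene (chromosome 1, 121261293 to 121261469), had 5 tags in CDDO-Im 2 alone. One inside the zinc finger gene ZNF254 (chromosome 19, 24046044 to 24046249) had 6 tags in CDDO-Im 1 alone. SRGAP2C has near-identical copies on the same chromosome, so its tags are uncertain. Of these 5 regions, only that near ALG10 was listed in all 4 libraries, so the others give no full comparison of the groups.

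The strongest dense regions listed in all 4 libraries, ranked by lowest fold enrichment, had few tags on low background. The first lay on chromosome 17 (22985256 to 22986220), 1280991 bp from KCNJ18, a potassium channel gene, where the vehicle libraries had 10 and 12 tags and the CDDO-Im libraries 9 and 19. The second (chromosome 17, 23084221 to 23084533) held 9 and 19 against 9 and 22. The third (chromosome 15, 18415343 to 18416395) held 20 and 21 against 19 and 27, and the fourth (chromosome 22, 14673735 to 14674372) 10 and 24 against 9 and 25. The fifth (chromosome 17, 22966943 to 22967589) held 13 and 25 against 11 and 19. In none of these 5 did the groups separate. The groups overlapped in 67.5% of the 203 dense regions of all 4 libraries and in 36.5% of all 433. Ranking by the lowest fold also favours regions with like values in every library, so these 5 say little about separation.

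Median tags of regions listed by exactly 2 libraries lay between 8 and 10 for all 6 pairs. Regions of both vehicle libraries alone had a median of 8 and 9 tags, those of both CDDO-Im libraries alone 8 and 10, and those of vehicle 2 and CDDO-Im 2 alone 9 and 10. Among the last, the highest by lower fold enrichment lay on chromosome 21 (11345805 to 11346098), 740217 bp from TPTE, with 28 tags in vehicle 2 and 29 in CDDO-Im 2. The next lay on chromosome 16 (37971582 to 37971934) with 19 and 23 tags, chromosome 4 (50157129 to 50158214) with 19 and 17, chromosome 18 (17414847 to 17415208) with 19 and 26, and chromosome 20 (27815699 to 27816023) with 26 and 23. Vehicle 1 and CDDO-Im 1 listed no peak in any of these 5.

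The highest regions of the vehicle pair alone had 8 to 19 tags. They were led by one on chromosome 17 (22946878 to 22947332) with 11 and 13 tags and one on chromosome 5 (48689199 to 48689481), 1706892 bp from EMB, with 12 and 19. Of the CDDO-Im pair alone, the region inside LOC107985915 was first. The second (chromosome 19, 27975461 to 27975770) lay inside the long non-coding RNA gene LINC02987, with 10 and 10 tags. The third (chromosome 1, 122804986 to 122805191) held 9 and 9, the fourth (chromosome 17, 23614710 to 23614957) 7 and 8, and the fifth, in the isolated block of chromosome 21 (8353050 to 8353270), 10 and 7.

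Dense megabases hold 25 of 19974 protein-coding genes (0.125%), and 5 (0.0250%) lay within 10 kb of a dense region. Of 42 known NRF2 targets, among them HMOX1, NQO1, GCLM and TXNRD1, 0 did either, a share near that of all genes and so no result about the targets. Within 10 kb of a region elsewhere lay 29 targets (69.0%) and 16.5% of all protein-coding genes. The nearest to a dense region was ALDH3A1, an aldehyde dehydrogenase, at 3000297 bp.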

How the data were processed

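NRF2 chromatin immunoprecipitation was sequenced in 2 vehicle and 2 CDDO-Im libraries of HMC3 cells. The tools named by the submitters' processing notes are MACS2 2.2.7.1, BWA 0.7.17 and bcl2fastq 2.15.0, and hg38 is among the builds. Not given in the sources used here: the control, the threshold, and the treatment of duplicates and multiply mapped reads in peak calling, although multiply mapped reads bear directly on repeats. Each library has its own deposited list of peaks. Its deposited score is an integer for display, its fold is the authors' enrichment of the summit over local background, and its deposited −log10 values are the p and q of the peak. Fold and q values are the authors' and were used to describe or rank peaks within a list.

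Peaks sharing at least 1 bp were joined (Python 3.11.15, pandas 2.3.3, numpy 2.4.6, scipy 1.17.1, matplotlib 3.10.9). Tags and local background at each summit were recovered from fold, (tags + 1)/(background + 1), and from the Poisson p, within 0.001 plus 0.0002 of the value. All peaks were matched, 97.7% to 99.4% of a list by a single solution. The recovery was tested on simulated data. Total reads are not in the lists, so the lowest recovered background of a library stood in for depth, and tags were divided by it. Groups were compared by exact permutation over 2 against 2 libraries, and dense with other megabases by exact sign flips over 4 libraries.

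Genes came from a RefSeq table on GRCh38.p14 (19974 protein-coding genes, no strand). Distances run from the summit, except those of flanking genes, which run from the outermost region. Named regions were the 5 highest by lowest fold of each class described, named genes those within 10 kb of a dense region and those flanking the 8 largest blocks, and named megabases those nearest the threshold. Members and lists were chosen with earlier results of these data known. Alternatives changed the threshold, megabase edges, q, joining, gene set, depth measure and libraries.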

Additional observations from a re-analysis of the deposited data

Results flagged for a closer look

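Peaks on sequences outside chromosomes 1 to 22, X, Y and M (unplaced, unlocalised or alternate sequences of the build) were not joined into regions. The lowest background of each library, by which tags were divided, was taken over its whole list, these peaks included. CDDO-Im 1 and 2 listed 133 and 181 such peaks, above the 120 and 129 of vehicle 1 and 2. In number these exceed the vehicle libraries, but as a share of the whole list they were 3.31% and 1.46% with CDDO-Im and 2.84% and 1.73% under vehicle, so the groups overlapped. They lay on 60 and 75 sequences with CDDO-Im and on 45 and 46 under vehicle. Median local background at these peaks was 6.91 tags in vehicle 1, 4.74 in vehicle 2, 0.575 in CDDO-Im 1 and 0.367 in CDDO-Im 2, and their median tags were 25 and 22 against 22 and 11. The difference was not tested.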

How the results depend on the processing

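Of 100 alternative values of 10 results, 82 kept their direction and side of the threshold or moved by less than the spread, 12 moved and 6 changed sign. The log2 difference of dense tags between groups, 0.20, became -0.13 with megabase edges shifted by 500000 bp, -0.22 with a −log10 q of at least 5, -0.18 with peaks joined by summits within 100 bp and -0.12 without the isolated blocks (chosen after the data were seen). Leaving out 1 library gave -0.31 to 0.13, below 0 without vehicle 1 (-0.31) or CDDO-Im 2 (-0.23). The number of dense regions, 11945, became 4123 at that q, and 7823 (without CDDO-Im 2) to 11758 without 1 library. The share in 1 library, 69.9%, became 72.1% at the same q, 77.6% with summit joining and 70.4% to 83.3% without 1 library. The share of vehicle 2 and CDDO-Im 2 alone, 15.1%, became 18.3%, 11.4% and 15.998% to 23.6%, with no value once either library is left out. Differences between groups without 1 library carry no test. The median gene distance became 849977 bp with all annotated genes. Fewer peaks or libraries enter the q and leave-one-out values by construction, and the cause of the other shifts was not tested.

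Replicate numbers are shared between groups, but nothing in the labels ties equal numbers, and 2 pairs are too few to show pairing: deviations correlated at 0.24 over 433 regions and 0.53 over the dense ones. With the replicate number as a block, the tag difference stayed 0.20 (exact permutation p = 1) and the dense minus other difference -1.53 (exact permutation p = 0.5), so no call changed.

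The smallest p of 2 against 2 libraries is 0.333. Peaks carry as few as 4 tags, so absence from a list is not absence of signal. The lists do not tell reads of one repeat copy from reads of many.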
